A study of Mus musculus with 5 samples.

Results

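The subject of this report is the mRNAs of 8 genes that act around the RNA helicase UPF1 in nonsense-mediated mRNA decay (NMD), namely Smg1, Smg8, Smg9, Smg5, Smg6, Pnrc2, Dhx34 and Nbas. They were taken by gene symbol from a table of 55573 genes, each symbol matched 1 row, and all 8 were expressed well enough to be tested. RNA had been isolated from the mouse neuroblastoma line Neuro-2A (N2A) after transient transfection with 60 pmol of the commercial siRNA Silencer Negative Control #1 (siCtl, 2 libraries, replicates 1 and 3) or of an siRNA against Upf1 (siUpf1, 3 libraries, replicates 1, 2 and 3). All cells therefore received an siRNA and the same transfection reagent, the knockdown was partial and transient, and only 1 Upf1 siRNA was used. The study describes immunoblots of such cells as independently performed, but the labels do not say whether the libraries came from separate cultures, so the p-values below measure the spread between these libraries, which may be technical.

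NMD degrades mRNAs on which translation ends too early, and it also limits many normal mRNAs. SMG1 is the kinase that phosphorylates UPF1, and SMG8 and SMG9 bind SMG1 and restrain it. Phosphorylated UPF1 recruits SMG6, an endonuclease that cuts the mRNA near the stop codon, and SMG5, an adaptor that leads to deadenylation and decapping. PNRC2 links the pathway to the decapping enzyme, DHX34 is a helicase that promotes UPF1 phosphorylation, and NBAS takes part in NMD at the endoplasmic reticulum, where it also serves in membrane traffic. The mRNAs of several NMD factors are known to be controlled by NMD themselves, often in connection with a long 3′ untranslated region (3′ UTR).

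The target of the siRNA was examined first. The strand given in the labels and its reverse complement are shown because the seed of either strand, bases 2 to 8 and here in capitals, could act on other mRNAs.
Strand in the labels: uCAAGGUUccugauaauua
Its reverse complement: uAAUUAUCaggaaccuuga
All 19 bases of the labelled strand were found in annotated Upf1 transcripts, whereas the longest run that any transcript of the 8 genes shared with either strand was 10 bases. Upf1 itself fell to 46.8% of the siCtl level, from 5230 ± 18.1 normalised read counts (SD, n = 2) to 2449 ± 46.6 (SD, n = 3), with an adjusted p of 7.09e-101 by DESeq2.

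The libraries held 20402205 to 27717594 assigned reads. The lowest depth, the fewest genes with a read (21757, against 22529 to 23215) and the highest share of reads in Gm42418 (7.32%, against 4.27 to 5.91%) were all in siUpf1 replicate 2, and omission of this library changed no call among the 8 genes. Mitochondrially encoded genes took 2.47 and 2.63% of reads in siCtl and 2.85 to 3.00% in siUpf1, and the calls were the same when these genes were left out. Of 12 markers of sympathetic neuroblasts and neurons, 10 had a mean over 10 normalised counts, with Tubb3, Chgb, Hand2 and Chga the most abundant, whereas Nefl and Nefm were at or near 0. Their summed level was 1494 to 1527 in siCtl, in counts scaled to the library total (CPM), and 1774 to 1856 in siUpf1, with 7 of the 10 tested markers called higher. Markers of fibroblasts, macrophages, glia, epithelium and endothelium (14 genes) summed to 36.6 to 41.7 CPM, with Lum at 0 in every library, Epcam, Adgre1, Ptprc, S100b and Col1a2 at or near 0, and Mbp the most abundant. Of the 8 tested, Pdgfra and Pecam1 were called lower. The part of these shifts in the results below was not tested.

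On Upf1 knockdown the 8 mRNAs moved in opposite directions. Smg6, Smg1 and Smg5 rose, Nbas, Smg8 and Pnrc2 fell, and Smg9 and Dhx34 did not pass the test. Changes were tested with DESeq2 over all genes, and the word called refers to an adjusted p-value under 0.05. Of the 8 genes, 6 were called, where 44.9% of 15191 tested genes were called. edgeR's quasi-likelihood test called all 8, where it called 54.6% of 15368 genes. The 3 that rose and the 3 that fell compare with 22.0% of tested genes called higher and 22.9% called lower. For each of the 8 genes the siUpf1 libraries lay entirely to 1 side of the siCtl libraries, 4 above and 4 below, but this was also so for 69.4% of tested genes. The median log2 fold change of siUpf1 over siCtl was -0.03 for the 8 genes and -0.0024 for all tested genes, and the median size of the change was 0.27 and 0.28, respectively. The 8 mRNAs thus had no common direction, and the median size of their changes was close to that of all tested genes. That background was not matched for expression. The mean count of Dhx34 was above that of 40.4% of tested genes. For the other members this share ran from 65.4% (Smg8) to 97% (Smg5), and genes of similar expression were not compared. In bulk RNA, a change in the amount of an mRNA per cell and a change in the make-up of the culture cannot be told apart.

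**Figure D1:**
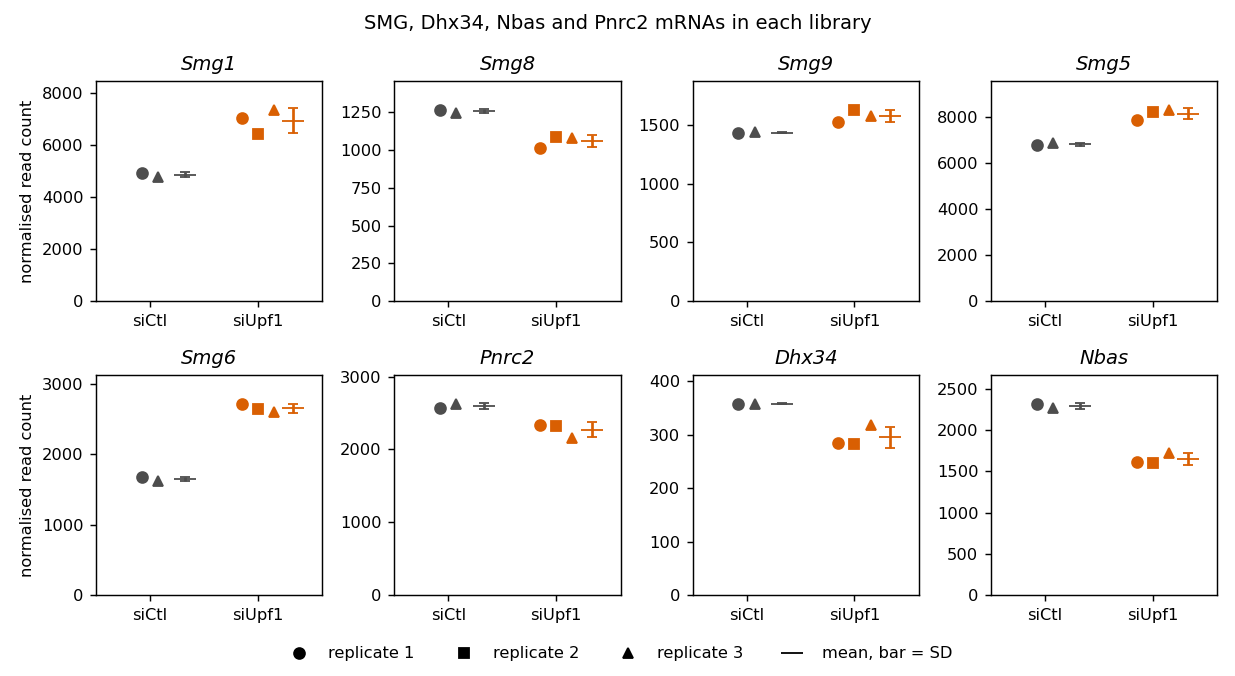
Normalised read counts (y axis, from 0) of the 8 mRNAs in each library, with siCtl in grey and siUpf1 in orange, a symbol per replicate number, and the mean with its SD beside the points. The siUpf1 points of Smg1, Smg9, Smg5 and Smg6 lie above both siCtl points and those of Smg8, Pnrc2, Dhx34 and Nbas below them.

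**Figure D2:**
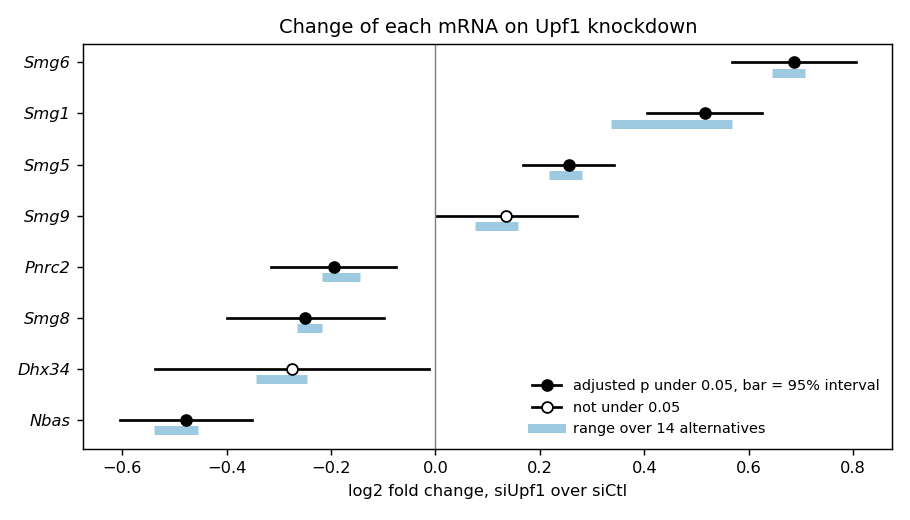
Log2 fold change of siUpf1 over siCtl (x axis) for each of the 8 mRNAs with its 95% interval from DESeq2, filled where the adjusted p-value was under 0.05. The blue bars show the range over 14 alternative analyses, which stayed on the same side of 0 for every gene, from 0.64 to 0.71 for Smg6 and from -0.54 to -0.46 for Nbas.

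The kinase came first among the genes that bring about UPF1 phosphorylation. Smg1 (ENSMUSG00000030655.15, GRCm38 chromosome 7, 118131308 to 118243670, minus strand) had 4934 and 4797 normalised counts in siCtl replicates 1 and 3, and 7045, 6428 and 7374 in siUpf1 replicates 1, 2 and 3. The lowest siUpf1 library, replicate 2, was still well above both siCtl libraries. The increase was 1.43-fold, or 0.52 on the log2 scale (SE 0.057), with a DESeq2 adjusted p of 1.42e-18. Smg1 has one of the longest coding sequences among expressed mRNAs (10977 nt, longer than in 99.6% of 10947 mRNAs). Removal of each library's trend with exon length and GC content lowered the log2 fold change to 0.34 (DESeq2 adjusted p = 1.5e-15).

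Of the mRNAs of the kinase's partners, that of Smg8 went the other way and that of Smg9 was slightly higher. Smg8 (ENSMUSG00000020495.13, chromosome 11, 87077732 to 87086774, minus strand) had 1264 and 1245 normalised counts in siCtl and 1011, 1082 and 1077 in siUpf1, so that every siUpf1 library was below both siCtl libraries. Its level fell to 84.2% (log2 fold change -0.25, SE 0.077, DESeq2 adjusted p = 0.00361). Omission of either siCtl library ended the call (DESeq2 adjusted p = 0.0782 without replicate 1 and 0.0565 without replicate 3), which leaves a single control library that is assumed to vary like the others.

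Smg9 (ENSMUSG00000002210.11, chromosome 7, 24399619 to 24422778, plus strand) had 1428 and 1434 normalised counts in siCtl and 1524, 1627 and 1570 in siUpf1. All siUpf1 libraries were higher, but the difference was small and did not pass DESeq2's test (0.14 on the log2 scale, 95% interval 0.0011 to 0.27, adjusted p = 0.0964). edgeR's quasi-likelihood test gave an adjusted p-value of 0.0282, and with the length and GC trend removed the log2 fold change was 0.08 (DESeq2 adjusted p = 0.337).

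Because counts of 2 genes in the same library can be divided by each other, the balance between their mRNAs does not depend on scaling between libraries. A library's trend with exon length and GC content does not cancel in such a ratio. The ratios here and below were not computed with that trend removed. There were 0.256 and 0.260 Smg8 reads per Smg1 read in siCtl and 0.144, 0.168 and 0.146 in siUpf1. For Smg9 there were 0.289 and 0.299 reads per Smg1 read in siCtl and 0.216, 0.253 and 0.213 in siUpf1. Both ratios were lower in every siUpf1 library, with differences of -0.76 log2 units for Smg8 and -0.38 for Smg9. With 2 libraries against 3, an exact permutation test (two-sided, 10 splits) cannot give a p-value under 0.1. It gave 0.1 for Smg8 to Smg1 and 0.2 for Smg9 to Smg1 (0.125 and 0.2 adjusted over the 5 pairs of genes that were examined).

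Of the 3 members that act after UPF1 phosphorylation (Smg6, Smg5 and Pnrc2), the endonuclease gene changed most. Smg6 (ENSMUSG00000038290.15, chromosome 11, 74925823 to 75164448, plus strand) had 1671 and 1625 normalised counts in siCtl and 2716, 2644 and 2591 in siUpf1. The 5 libraries fell into tight, separate groups. The increase was 1.61-fold (log2 fold change 0.69, SE 0.06, DESeq2 adjusted p = 2.31e-28), more than that of 90.9% of tested genes. Exons of Smg6 overlap those of Srr and of the antisense gene Gm12333 by 126 and 117 bases, both on the opposite strand, and the reads were counted by strand.

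The adaptor gene Smg5 (ENSMUSG00000001415.10, chromosome 3, 88336260 to 88362338, plus strand) had 6766 and 6847 normalised counts in siCtl and 7851, 8226 and 8303 in siUpf1. All siUpf1 libraries were higher by an amount that was modest but well beyond the spread, at 1.19-fold or 0.26 on the log2 scale (SE 0.045), with a DESeq2 adjusted p of 6.26e-08.

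Within the libraries, Smg6 gained on Smg5. There were 0.247 and 0.237 Smg6 reads per Smg5 read in siCtl and 0.346, 0.322 and 0.312 in siUpf1, a rise of 0.43 log2 units that was seen in all siUpf1 libraries (exact permutation test, two-sided, p = 0.1, the smallest possible, 0.125 adjusted over the 5 pairs).

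Pnrc2 (ENSMUSG00000028675.12, chromosome 4, 135870918 to 135873850, minus strand), for the decapping adaptor, went the other way. It had 2564 and 2629 normalised counts in siCtl and 2338, 2319 and 2154 in siUpf1, with the lowest value in siUpf1 replicate 3. Its level fell to 87.4% (log2 fold change -0.19, SE 0.061, DESeq2 adjusted p = 0.00416). This call was sensitive to the omission of single libraries. The DESeq2 adjusted p-value rose to 0.0656 when siUpf1 replicate 3 was omitted (log2 fold change -0.16). Omission of siCtl replicate 3, which leaves a single control library, also ended the call. There the log2 fold change was still -0.18, but the SE rose to 0.09. In the latter case Nbas was the 1 gene of the 8 still called lower. Relative to Smg5, there were 0.379 and 0.384 Pnrc2 reads in siCtl and 0.298, 0.282 and 0.259 in siUpf1, lower in every siUpf1 library (exact permutation test, two-sided, p = 0.1, 0.125 adjusted over the 5 pairs).

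Nbas (ENSMUSG00000020576.10, chromosome 12, 13269133 to 13583811, plus strand) had the largest decrease of the 8. It had 2323 and 2267 normalised counts in siCtl and 1617, 1596 and 1728 in siUpf1. The groups were far apart compared with the differences within them. Its level fell to 71.8% (log2 fold change -0.48, SE 0.065, DESeq2 adjusted p = 1.52e-12), and only 12.8% of tested genes had a smaller log2 fold change.

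Dhx34 (ENSMUSG00000006019.15, chromosome 7, 16197147 to 16222037, minus strand) was the least abundant of the 8, with 357 and 359 normalised counts in siCtl and 285, 284 and 318 in siUpf1. All siUpf1 values were lower, and replicate 3 was the closest to siCtl. At this depth the change had a wide error and did not pass DESeq2's test (-0.27 on the log2 scale, SE 0.134, 95% interval -0.54 to -0.012, adjusted p = 0.0834). It was called by edgeR's quasi-likelihood test (adjusted p = 0.0172) and by DESeq2 with the length and GC trend removed (adjusted p = 0.0205). There were 6.50 and 6.32 Nbas reads per Dhx34 read in siCtl and 5.68, 5.63 and 5.43 in siUpf1, a difference of -0.20 log2 units (exact permutation test, two-sided, p = 0.1, 0.125 adjusted over the 5 pairs).

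**Figure D3:**
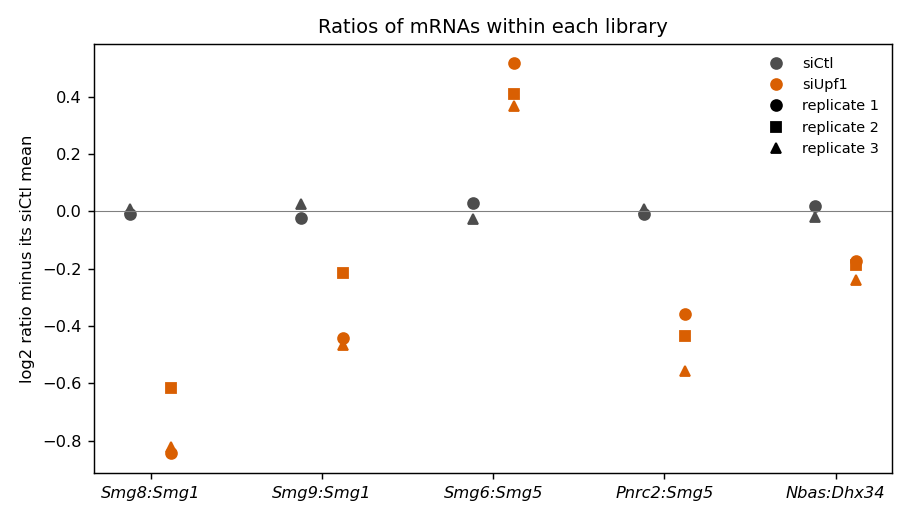
Log2 ratio of 2 mRNAs in the same library (y axis), shown relative to the mean of the siCtl libraries, for the 5 pairs on the x axis. The siUpf1 points (orange) of every pair lie to 1 side of the siCtl points (grey), on average -0.76 for Smg8 to Smg1, -0.38 for Smg9 to Smg1, 0.43 for Smg6 to Smg5, -0.45 for Pnrc2 to Smg5 and -0.20 for Nbas to Dhx34.

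To compare levels between genes, normalised counts were divided by the length of all annotated exons in kilobases. In siCtl the order was Pnrc2 (1173 ± 20.9 per kilobase, SD, n = 2), Smg5 (979 ± 8.14), Smg8 (390 ± 4.14), Smg9 (387 ± 1.21), Nbas (241 ± 4.15), Smg1 (203 ± 4.03), Smg6 (195 ± 3.87) and Dhx34 (77.9 ± 0.162). Only the neighbours Smg8 and Smg9 had overlapping values. In siUpf1 the order was Smg5 (1168 ± 34.7, SD, n = 3), Pnrc2 (1026 ± 45.9), Smg9 (425 ± 13.8), Smg8 (328 ± 12.2), Smg6 (314 ± 7.41), Smg1 (290 ± 20), Nbas (173 ± 7.41) and Dhx34 (64.3 ± 4.29). There, Smg8 overlapped with Smg6 and Smg6 with Smg1. The adaptor mRNAs of Smg5 and Pnrc2 were thus more abundant per length than those of the kinase and the endonuclease in both groups. The order depended on the length used. With the longest coding transcript as the length, Smg5 (1530) was above Pnrc2 (1353) and Smg9 (638) above Smg8 (390) in siCtl. By that length, Smg8 (328) was below Smg6 (453) and Smg1 (447) in siUpf1.

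The 8 mRNAs differ in the length of their 3′ UTRs, a feature linked to NMD. In the representative transcript of each gene, 3′ UTRs had 4233 nt in Smg1, 1498 nt in Smg6, 1230 nt in Smg5, 1096 nt in Pnrc2, 400 nt in Smg9, 221 nt in Smg8, 145 nt in Nbas and 73 nt in Dhx34. The 3 mRNAs that rose had the longest 3′ UTRs, and Pnrc2 fell although its 3′ UTR was near the median of 1072 nt. Spearman's rho between 3′ UTR length and log2 fold change was 0.929 across the 8 genes, which share libraries and are not independent. Over all expressed mRNAs (mean normalised count from 50, 3′ UTR from 50 nt, 10947 genes), rho was 0.185. Long 3′ UTRs were thus a weak guide to the change of an mRNA in general. Of 892 mRNAs with a 3′ UTR within 1.5-fold of that of Nbas, 38.5% were called lower and 14.9% higher. Of 1586 mRNAs with a 3′ UTR within 1.5-fold of that of Smg1, 22.1% were called lower and 41.0% higher. Around the length of the Smg6 3′ UTR the shares were similar, with 27.6% of 3143 mRNAs called lower and 29.1% higher. These correlations and shares were computed without removal of each library's trend with exon length and GC content. Exon length includes the 3′ UTR, and the part of that trend in them was not tested.

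**Figure D4:**
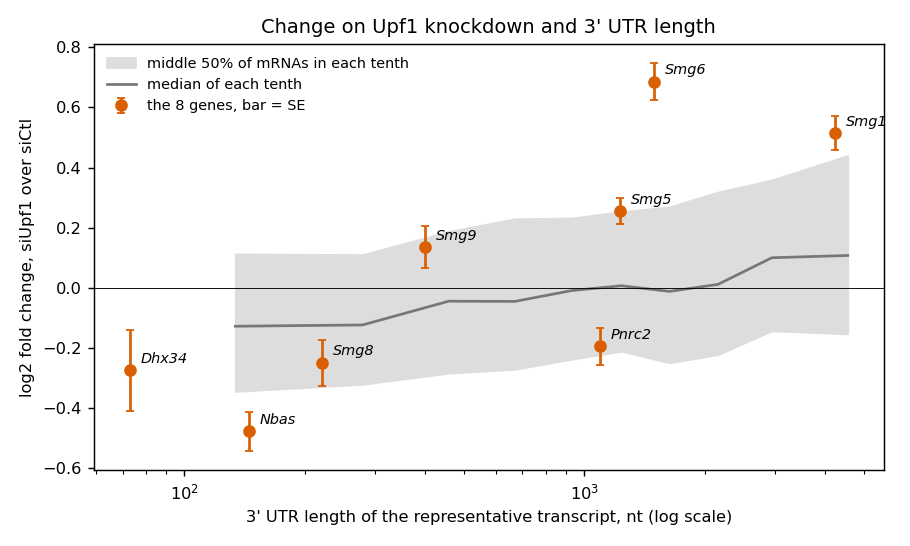
Log2 fold change of siUpf1 over siCtl (y axis) against the 3′ UTR length of the representative transcript (x axis, log scale). Orange points are the 8 genes with their SE, the grey line and band are the median and the middle 50% of 10947 mRNAs in bins of equal number by length. Smg6 (1498 nt) and Smg1 (4233 nt) lie above the band, Nbas (145 nt) below it and Smg5 at its upper edge.

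Other features that can mark a target of NMD were examined as well. An open reading frame that begins and ends within the 5′ UTR was present in 4 of them (Smg9, Smg5, Pnrc2 and Dhx34, with 1, 1, 2 and 7), compared with 44.4% of mRNAs. These 4 included 1 that rose, 1 that fell and both that did not pass the test. None of the 8 had an exon junction 50 nt or more after the stop codon of its representative transcript, an arrangement found in 0.402% of mRNAs. Transcripts annotated as NMD substrates were listed for Smg1, Smg5 and Smg6, 1 each, which are the 3 genes that rose. Genes with such a transcript (30.2% of 10947) did not rise in general, with a median log2 fold change of -0.03, compared with -0.0067 for the others. Reads were counted per gene, so the share of any such isoform was not measured.

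The 3′ UTRs were also searched on the mRNA strand for 7-base sites complementary to the seeds of the Upf1 siRNA. The site for the labelled strand is AACCTTG, which was present in 10.4% of 10947 3′ UTRs, and the site for its reverse complement is GATAATT, present in 8.08%. Neither was present in the representative 3′ UTR of any of the 8 genes. A further 7-mer, GCAGTAC, was examined because it was already known to be frequent in mRNAs that were higher in siUpf1 in these libraries, so the values are a description of them and no independent evidence. It was present in 5.48% of 3′ UTRs and in 2 of the 8 genes, Smg1 and Smg6, the ones with the largest increases. The 3 sites are shown with the bases on either side, in the orientation of the mRNA, with the 7-mer in capitals.
Smg1, first site, chr7:118132460-118132482, minus strand: tattacagGCAGTACtttaaatc
Smg1, second site, chr7:118132387-118132409, minus strand: ttacttgtGCAGTACtaaaatca
Smg6, chr11:75163696-75163718, plus strand: ctttcactGCAGTACcctcttgg
They begin 3067, 3140 and 754 bases after the stop codon, respectively, all in the 3′ UTR. The 600 mRNAs with GCAGTAC had a median log2 fold change of 0.24, 51.7% of them were called higher, and their median 3′ UTR length was 2619 nt. The mRNAs without it had a median of -0.02, with 26.0% called higher and a median 3′ UTR of 1016 nt. Smg1 (0.52) and Smg6 (0.69) were above the median of the mRNAs that share the 7-mer. Smg5, which rose, has no GCAGTAC in its representative 3′ UTR. The sequence of the control siRNA is not given in the sources used here, and whether GCAGTAC is a seed site of that siRNA was not tested. For Smg1 and Smg6, a rise on Upf1 knockdown therefore cannot be told apart from a lower level in siCtl through such a site. Whether the control siRNA changed Smg5 or the other members was not tested, and only representative 3′ UTRs were searched. The part of the Upf1 siRNA's seeds in these changes was not tested either.

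Genes of the surrounding pathway were examined next, in lists chosen for their known roles. They were read against the 44.9% of all tested genes that were called, 22.0% higher and 22.9% lower. Among 15 other NMD factors, 3 were called higher, 7 lower and 5 did not pass the test (median log2 fold change -0.18). The factors that rose were Casc3 (0.48) and Rnps1 (0.32), which encode proteins associated with the exon junction complex, and Ncbp1 (0.38), for the large subunit of the nuclear cap-binding complex. Those that fell, besides Upf1, were Rbm8a (-0.47) and Magoh (-0.22), for core proteins of the exon junction complex, Upf3a (-0.32), Ncbp2 (-0.26) and the release factor genes Etf1 (-0.26) and Gspt1 (-0.18). Eif4a3 (0.12) and Magohb (-0.22), also for core proteins of the exon junction complex, were not called by DESeq2. Nor were Upf2 (0.33), Upf3b (-0.08) and Gspt2 (0.12).

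SMG1 is kept stable by co-chaperones that also serve its kinase relatives. All 7 of their genes were called by DESeq2, 2 higher and 5 lower (median -0.23). Telo2 (0.46) and Tti1 (0.27), which encode subunits of the complex that binds these kinases directly, rose, whereas the gene of the third subunit, Tti2 (-0.23), fell. Pih1d1 (-0.59), Ruvbl1 (-0.58), Rpap3 (-0.50) and Ruvbl2 (-0.19), for proteins of the R2TP complex, fell as well. Of the 5 other kinases of the family, Trrap (-0.31), which lacks kinase activity, and Atr (-0.26) were lower and Atm was higher (0.19, DESeq2 adjusted p = 0.0483). Mtor (95% interval -0.16 to 0.029) and Prkdc (-0.13 to 0.18) were not called. Only 1 of these 5 was called without siCtl replicate 1, without siCtl replicate 3 or without siUpf1 replicate 3. Smg1 therefore had the largest increase of the 6 kinase-family genes examined, although differences between genes were not tested.

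Among 16 genes of decapping, deadenylation and UPF1 dephosphorylation, 6 rose, 6 fell and 4 did not pass the test (median -0.09). Cnot7, a deadenylase gene, had the largest increase, from 2191 ± 84.4 normalised counts in siCtl (SD, n = 2) to 4150 ± 235 in siUpf1 (SD, n = 3), with a change of 0.92 on the log2 scale (SE 0.061) and a DESeq2 adjusted p of 2.76e-50. Cnot8, for its close relative, fell (-0.28). Ppp2r1a, for the scaffold subunit of protein phosphatase 2A, rose by 0.68, while Ppp2ca, for the catalytic subunit, was not called (-0.0037, 95% interval -0.083 to 0.075). The decapping activators Dcp1b (0.54) and Dcp1a (0.25) and the decapping-associated helicase gene Ddx6 (0.19) rose, and Edc4 (-0.25) and Edc3 (-0.20) fell. The decapping enzyme gene Dcp2 was not called (-0.05, 95% interval -0.22 to 0.11).

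Of 7 genes whose proteins work with NBAS in vesicle tethering and fusion at the endoplasmic reticulum, 3 were called lower and 0 higher by DESeq2 (median -0.26), and 5 were called by edgeR's quasi-likelihood test. Sec22b (-0.71), Stx18 (-0.61) and Zw10 (-0.41) fell, and Bnip1 was at 0.01 (95% interval -0.15 to 0.18). Scfd2 (-0.26), Rint1 (-0.18) and Use1 (-0.18) were, like Bnip1, not called by DESeq2. The value of Nbas (-0.48) lay among those of the 3 genes called lower and below those of the 4 not called. These 3 of 7 compare with 22.9% of all tested genes called lower and 44.9% called in either direction. Of 15 other helicase genes with a Dhx symbol, 9 were called lower and 2 higher (median -0.26). The shared symbol does not make each of them a close relative of Dhx34. The largest decrease was that of Dhx58 (-1.36), which encodes an RNA sensor of the interferon response, followed by Dhx16 (-0.61) and Dhx40 (-0.57), and Dhx33 (0.38) and Dhx36 (0.26) rose.

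**Figure D5:**
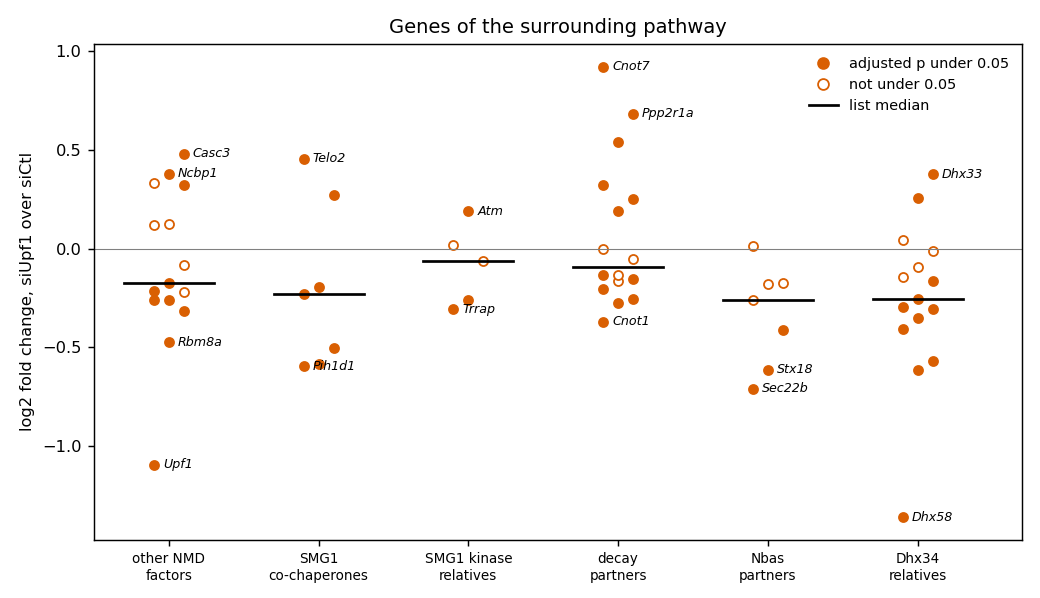
Log2 fold change of siUpf1 over siCtl (y axis) of each gene in the 6 lists (x axis), filled where the DESeq2 adjusted p-value was under 0.05, with the list median as a line. Medians lie between -0.26 and -0.06 and every list except that of the Nbas partners holds genes called in both directions. The list marked as Dhx34 relatives was chosen by the Dhx symbol.

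The genes whose profile was nearest to that of Smg6 over the 5 libraries, by the distance between centred log2 normalised counts among 10963 genes with a mean of at least 100, were Spry2 (log2 fold change 0.68), Arhgef28 (0.66) and 9530068E07Rik (0.69). Those nearest to Nbas were Zfp410 (-0.48), Smpdl3b (-0.47) and Dtwd1 (-0.47). The similar fold changes follow largely from how these genes were chosen, and joint regulation was not tested.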

How the data were processed

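The deposited table holds raw counts of reads for each gene. According to the methods and the labels, the authors trimmed single-end reads of strand-specific poly(A) libraries with fastp, mapped them to GRCm38.p6 with STAR (2.7.0f) and counted reads over exons by strand with featureCounts (Subread 1.6.4). The counts were neither normalised nor pooled, and every column belonged to a sample. PCR duplicates cannot be recognised in such a table. The stated options count no read that maps to several places or overlaps several genes.

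The main test was DESeq2's Wald test (1.42.0, R 4.3.3) on all genes and 5 libraries, with a model of group alone, size factors by the median of ratios, and Benjamini-Hochberg adjustment. The study's methods name DESeq2 and the 0.05 threshold and give no model. edgeR's quasi-likelihood test (4.0.16) was an alternative. Fold changes are unshrunken. Transcript features came from GENCODE M21, which describes the same build and holds 99.8% of the identifiers. The representative transcript was the principal coding transcript and may differ from the isoform in N2A cells. The members, lists and tests were chosen with earlier results of these data known. Named genes were the 8 members, Upf1, genes of the lists and the 3 genes nearest to the highest and the lowest called member; which list genes are named was decided after their values were seen. A gene of the pathway was taken out of the lists afterwards and is not reported here. Scripts were tested on simulated data.

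Replicate numbers 1 and 3 occur in both groups. The correlation of deviations from the group means across 10963 genes was -0.102 for number 1 and -0.105 for number 3, so the numbers were not treated as pairs. The deviations of the 2 siCtl libraries mirror each other, so these correlations are not separate checks. Replicate libraries differed by more than sampling noise (chi-square per degree of freedom of 5.22 to 21.1 within groups and 42.8 to 55.2 between them) and were counted separately. The alternatives were TMM or total-count size factors, a minimum of 10 counts in 2 libraries, no filter, omission of mitochondrially encoded genes, removal of length and GC trends, the replicate block, and omission of each library.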

Additional observations from a re-analysis of the deposited data

How the results depend on the processing

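Across 14 alternatives for each of the 8 genes, no log2 fold change turned its direction. Of these 112 values, 101 kept their side of the threshold, 8 lost the call (Smg8 and Pnrc2, 4 each) and 3 gained it (Dhx34 under edgeR and with the length and GC trend removed, Smg9 under edgeR). Smg1, Smg5, Smg6, Nbas and Upf1 kept their calls in all 14. Removing the length and GC trend moved Smg1 to 0.34 and Smg9 to 0.08. With the replicate block, in which the numbers share only a name, 1957 genes were higher and 1962 lower in the whole table, and 1 of the 8 was lower, with adjusted p-values of 0.122 for Smg8 and 0.132 for Pnrc2. Calls numbered 6 among the other NMD factors, 4 among the co-chaperones, 1 among the kinase relatives and 7 among the decay genes. With the block and the length and GC trend removed, the whole table had 1993 higher and 2250 lower, 1 of the 8 was lower, and the calls were 7 for the other NMD factors and 4 for the co-chaperones. The block leaves fewer degrees of freedom. edgeR called 5 Nbas partners. Scaling to total counts moved the median of the 8 genes to -0.0078. Leaving out each library gave 1 to 3 of the 8 lower and 1 to 2 kinase relatives called. Per kilobase of the longest coding transcript, siCtl and siUpf1 levels were 313 and 447 for Smg1, 638 and 702 for Smg9, 1530 and 1827 for Smg5, 282 and 453 for Smg6, 1353 and 1183 for Pnrc2, and 317 and 228 for Nbas, and the siCtl level of Dhx34 was 83.1, since that length is shorter than all exons together. The 5 within-library ratios kept their direction without each library. Depth limits Dhx34 most, with 226 to 380 reads.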
